A study of Mus musculus with 6 samples.

Results

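The Id proteins and their bHLH partners are 9 genes, Id1, Id2, Id3, Id4, Tcf3, Tcf4, Tcf12, Lyl1 and Tal1, followed here in the bone marrow of diseased mice. The members were fixed by name. For each one the brightest probe set that carries exactly 1 gene symbol was taken, and all 9 were found, each with 1 such probe set, among 19938 genes. Each mouse was a lethally irradiated CD45.1+ recipient of CD45.2+ LSK cells, the marrow fraction that holds stem and early progenitor cells, and in both groups these donor cells had been transduced with Meis1. In 3 mice (HoxA9wt/Meis1) the donor cells also carried HoxA9wt-GFP, and in 3 mice (HoxA9AA/Meis1) they carried HoxA9AA-GFP, an altered form. RNA of whole bone marrow cells, taken at disease onset, was hybridised to 1 array per mouse. The labels name no sort, so that recipient cells may be in the samples, and they give no strain, age or driving promoter.

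The Id proteins have a helix-loop-helix domain but no basic region. They pair with the E proteins encoded by Tcf3 (E2A), Tcf4 (E2-2) and Tcf12 (HEB) and keep them from binding DNA at E-boxes, short sites with the letters CANNTG. Lyl1 and Tal1 are bHLH factors of blood stem and progenitor cells that bind DNA as partners of E proteins, in a complex with Lmo2, Ldb1 and Gata factors. Id2 is known for its part in natural killer, innate lymphoid and dendritic cells and in myeloid differentiation, and the E proteins for lymphoid commitment.

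Id2, Lyl1 and Tcf12 kept the groups apart, Id2 with lower and Lyl1 and Tcf12 with higher values in HoxA9AA/Meis1 marrow. Id3 and Tcf4 also kept them apart but are not shown. The stretches upstream of the 3 genes are shown because E proteins act through E-boxes. They are the 250 bases before the RefSeq start, 5′ to 3′ in the direction of the gene, from GRCm38.p6, at chr12:25096093-25096342 (minus strand), chr8:84701207-84701456 (plus strand) and chr9:72111820-72112069 (minus strand, 1 of 3 Tcf12 starts). Capitals mark E-boxes (CANNTG, searched on both strands).
Id2: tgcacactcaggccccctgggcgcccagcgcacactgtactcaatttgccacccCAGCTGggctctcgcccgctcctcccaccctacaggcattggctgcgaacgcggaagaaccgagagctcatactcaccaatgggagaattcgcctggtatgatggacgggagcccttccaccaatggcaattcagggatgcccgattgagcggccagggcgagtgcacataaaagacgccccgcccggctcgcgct
Lyl1: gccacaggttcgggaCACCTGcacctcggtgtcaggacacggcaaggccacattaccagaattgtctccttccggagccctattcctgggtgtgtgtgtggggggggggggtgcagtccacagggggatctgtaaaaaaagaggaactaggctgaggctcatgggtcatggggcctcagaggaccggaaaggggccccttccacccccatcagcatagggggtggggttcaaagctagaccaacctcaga
Tcf12: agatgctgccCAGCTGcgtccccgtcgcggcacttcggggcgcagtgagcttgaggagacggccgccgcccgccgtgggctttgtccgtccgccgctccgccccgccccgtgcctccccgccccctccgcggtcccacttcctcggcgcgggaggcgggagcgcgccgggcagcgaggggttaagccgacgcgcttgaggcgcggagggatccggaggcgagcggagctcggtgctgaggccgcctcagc
Each of the 3 stretches holds 1 E-box, but the choice of stretches favours this result. The Id3 stretch holds 0 and was left out, since no level of Id3 can be read. Of the Tcf12 starts not shown, 1 has CAAGTG and 1 has no E-box. The search of the RefSeq table covered 7 of the 9 members, with 10 starts in all. Id1 had no match there, and Tcf4 was left out before the search. An E-box was found before 5 of these 10 starts, and before 66.2% of all 32851 starts in the table. The narrower letters CAGCTG or CAGGTG, favoured by E proteins, stand before 3 of the 10 starts (the ones shown; in Lyl1 as CACCTG, the other strand of CAGGTG) and before 27.7% of all starts. GGCGCC, a GC-rich element of the kind that BMP-activated Smads bind, stands before Id2 and Id4 and before 9.59% of all starts. TGATNNAT, letters used by pairs of Hox and Pbx proteins, was found before 1 of the 2 Tal1 starts (7.68% of all starts), and the Meis letters TGACAG before 0 of the 10 (15.9% of all). A match is a description of letters and not a binding site.

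Values are log2 expression, where 1 unit stands for 2-fold, and each difference is the HoxA9AA/Meis1 mean less the HoxA9wt/Meis1 mean. Levels of different genes are not set against each other, since each probe set has its own brightness. Array medians ran from 6.73 to 6.85. Of 1027 olfactory receptor genes, taken as genes that are off in marrow, 95% lay under 6.52 to 6.72. Hoxa9 measured 8.93, 8.27 and 7.89 in the HoxA9wt mice and 8.72, 8.49 and 9.07 in the HoxA9AA mice, and Meis1 measured 9.26, 9.36 and 10.21 against 8.50, 9.51 and 10.58. The arrays do not part introduced from endogenous transcripts, so that these values check presence and not the form of HoxA9. All 19 measured neutrophil granule genes and all 17 measured monocyte and macrophage genes were above the olfactory limit on at least 1 array. HoxA9AA replicate 2 correlated with the HoxA9wt arrays at r = 0.989 to 0.991 across genes, and HoxA9AA replicates 1 and 3 at 0.958 to 0.970, so that the HoxA9AA mice did not form a tight group. Values that it moves most are also given without it. This HoxA9AA mouse is the one most like the HoxA9wt group, so leaving it out favours wider differences and smaller p-values.

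The comparison asked which members differ between HoxA9AA/Meis1 and HoxA9wt/Meis1 marrow. Id2 had the largest difference of the 9, towards lower values in HoxA9AA/Meis1 marrow, while Lyl1, Tcf4 and Tcf12 were higher in each HoxA9AA mouse than in each HoxA9wt mouse. Tcf3 was high in HoxA9AA replicates 1 and 3 only, and Id1, Id4 and Tal1 overlapped. No member passed the test. With limma, 0 of the 9 had an adjusted p under 0.05, as did 0% of all genes, and the smallest adjusted p of all genes was 0.731. An unadjusted p under 0.05 was found for 4 members, Id2, Lyl1, Tcf12 and Tcf4, against 6.74% (1344) of all genes, 4.15% higher and 2.59% lower. 7 of the 9 means were higher and 2 lower in HoxA9AA/Meis1, where 52.8% of all genes had a higher mean. Without HoxA9AA replicate 2, 0.241% of all genes (48) passed, without HoxA9wt replicate 3 0.00502% (1 gene), and in both cases 0 of the 9 members. The groups did not overlap for 5 members, 4 of them higher and 1 lower in HoxA9AA/Meis1. Among the 4 is Id3, apart by 0.01 and above the olfactory limit on 0 arrays. Of all genes, 11.4% did not overlap in either direction, 6.6% higher and 4.8% lower. The members were chosen with earlier results of these arrays known, so these counts are a description.

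**Figure D1:**
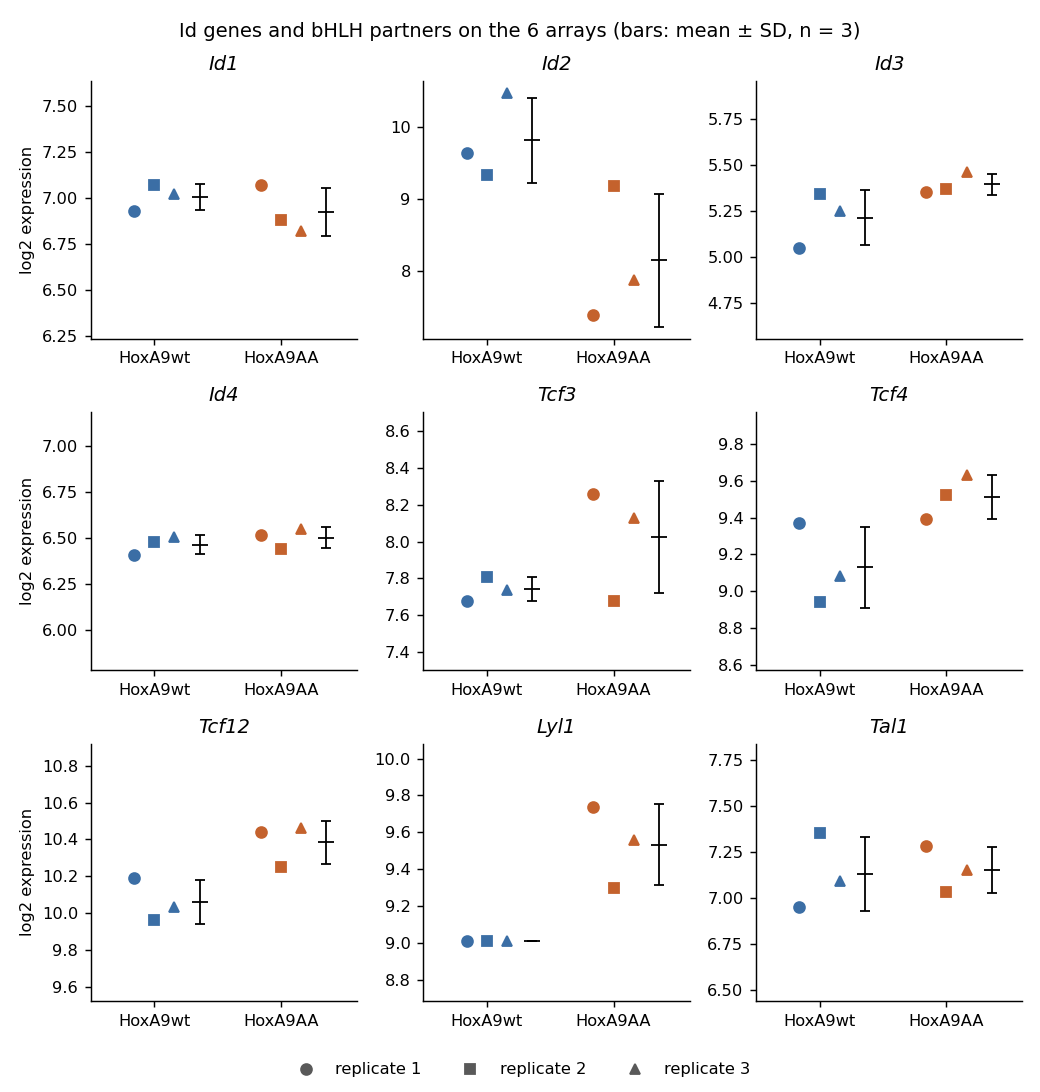
Expression values (log2, vertical axis) of the 9 genes on each of the 6 arrays, by group on the horizontal axis; each symbol is 1 mouse, and bars show mean ± SD by group (n = 3). The vertical scales differ between genes. Id2 is lowest in HoxA9AA replicates 1 and 3, at 7.39 and 7.88, and Lyl1 reads 9.01 in all 3 HoxA9wt group and 9.30 to 9.74 in the HoxA9AA group.

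Among the inhibitors, Id2 carried the difference. It measured 9.64, 9.34 and 10.48 in HoxA9wt replicates 1, 2 and 3 and 7.39, 9.18 and 7.88 in HoxA9AA replicates 1, 2 and 3. The groups did not overlap, but HoxA9AA replicate 2 lay 0.16 below the nearest HoxA9wt mouse and the other two HoxA9AA mice more than 1 below it. The means were 9.82 ± 0.59 (SD, n = 3) and 8.15 ± 0.93, a difference of −1.67 ± 0.50 (SE), or a 3.18-fold higher level in HoxA9wt/Meis1 marrow, with a 95% interval of −2.88 to −0.46 from the moderated fit (limma, unadjusted p = 0.0142, adjusted p = 0.731). By size, 37 of the 19938 genes had a difference as low as that of Id2 or lower. The difference was −2.19 without HoxA9AA replicate 2 (limma, adjusted p = 0.0912) and −1.29 without HoxA9AA replicate 1 (adjusted p = 0.697). Id2 also spread within the HoxA9wt group, over 1.14, where HoxA9wt replicate 3 was the highest of the 6 mice.

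Markers of monocytes and macrophages had lower means along with Id2. All 17 measured genes of the 19 on that list had a lower mean in HoxA9AA/Meis1 marrow, with a median difference of −0.56 against 0.01 over all genes, and 0 passed. The median was −0.33 without HoxA9wt replicate 1, −0.32 without HoxA9AA replicate 1, −0.32 without HoxA9AA replicate 3 and −0.80 without HoxA9AA replicate 2. Their mean deviation from the HoxA9wt level was −0.81, −0.08 and −0.65 in HoxA9AA replicates 1, 2 and 3, whereas the HoxA9wt mice lay at −0.28 to 0.21. Their summed level (log2 of the sum of linear values) lay between 15.18 and 15.36 in the HoxA9wt group and between 14.40 and 15.17 in the HoxA9AA group. Of the 17 genes, 3 kept the groups apart, all lower in HoxA9AA/Meis1 (4.8% of all genes in that direction). Ctss, a lysosomal protease, measured 12.32 to 12.52 against 10.62, 12.24 and 11.35. Ccr2, the chemokine receptor of inflammatory monocytes, measured 12.06 to 12.25 against 9.97, 12.05 and 11.30, groups apart by 0.01. Lyz2 measured 12.96 to 13.07 against 12.73, 12.82 and 11.59. Without HoxA9AA replicate 2 the differences were −1.43 for Ctss (limma, adjusted p = 0.0839) and −1.50 for Ccr2 (adjusted p = 0.170). The part of monocytes in the Id2 difference was not tested, and in bulk marrow fewer cells of a type and less RNA per cell cannot be told apart. Id2 in HoxA9AA replicate 2 was 0.64 under the HoxA9wt mean, while that mouse's monocyte list was at −0.08.

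Genes of other cells that use Id2 took no common direction. Of 19 conventional dendritic cell genes 9 were higher and 10 lower (median −0.04). Xcr1, Clec9a and Zbtb46 were among the 5 of them that stayed under the olfactory limit on all 6 arrays. The summed level of the 19 was 12.34 to 12.68 in HoxA9wt/Meis1 and 12.02 to 12.80 in HoxA9AA/Meis1 marrow. Of 20 measured T and NK cell genes 11 were higher and 9 lower (median 0.03), with summed levels of 10.89 to 11.41 and 11.13 to 12.49, and Ncr1, Klrb1c, Gzma and Eomes stayed under that limit on all arrays. Nkg7, a granule protein of cytotoxic cells, reached 11.87 and 10.94 in HoxA9AA replicates 1 and 3 against 7.39 to 8.64 in the other 4 mice.

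**Figure D2:**
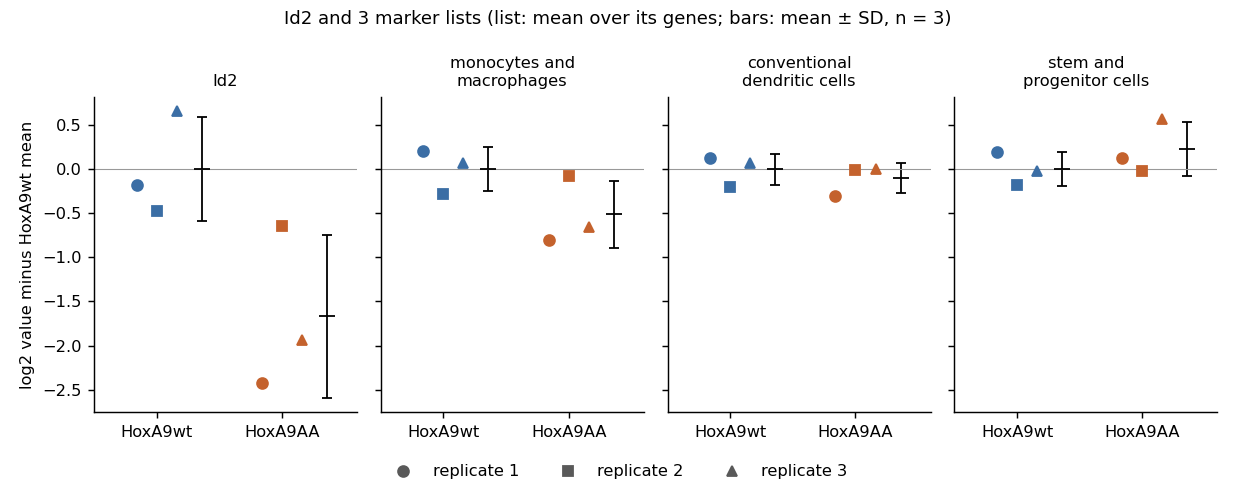
Log2 value minus the HoxA9wt mean (vertical axis) for Id2 and, as the mean over its measured genes, for 3 marker lists on each of the 6 arrays, by group on the horizontal axis; each symbol is 1 mouse, and bars show mean ± SD by group (n = 3). Id2 and the monocyte list are both lowest in HoxA9AA replicate 1 (−2.43 and −0.81) and next lowest in HoxA9AA replicate 3 (−1.94 and −0.65), and the dendritic cell list overlaps between the groups.

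The genes whose values over the 6 mice came nearest to those of Id2 were Cd86, Gpcpd1, Mir15a and Ifi207, by the root mean square distance of mean-centred log2 values among 18711 genes. Cd86, a costimulatory ligand of antigen-presenting cells, lay at a distance of 0.25, with 6.68, 6.89 and 7.96 in the HoxA9wt mice and 5.28, 6.58 and 5.48 in the HoxA9AA mice. Gpcpd1, a glycerophosphodiesterase, lay at 0.31, the probe set annotated to Mir15a at 0.35, and the interferon-inducible gene Ifi207 at 0.37. Chosen for their nearness to Id2, these 4 also read lowest in HoxA9AA replicate 1 and next lowest in HoxA9AA replicate 3. Their group differences were between −1.59 and −1.24. Unlike in Id2, the groups overlapped in Gpcpd1, Mir15a and Ifi207, since HoxA9AA replicate 2 lay above HoxA9wt replicate 2. Ifi207 measured 11.10 to 11.43 in the HoxA9wt mice and HoxA9AA replicate 2 and 8.93 and 8.99 in the other two.

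The other Id genes stood at or near the limit of detection. Id1, the classical BMP-responsive Id gene, measured 6.93, 7.07 and 7.02 in the HoxA9wt mice and 7.07, 6.88 and 6.82 in the HoxA9AA mice, just above the olfactory limit on every array. The groups overlapped, with a difference of −0.08 ± 0.10 (SE) and a 95% interval of −0.32 to 0.16 (limma, adjusted p = 0.918). Id3, a partner of E proteins in lymphocytes, measured 5.05, 5.34 and 5.25 against 5.35, 5.37 and 5.46. Its groups were apart by 0.01 and all 6 values lay under the olfactory limit, so that no level of Id3 can be read from them (difference 0.18, limma, adjusted p = 0.783). Id4, an Id gene of nervous tissue and other non-blood cells, measured 6.41 to 6.51 and 6.44 to 6.55, above that limit on 1 array, with a difference of 0.04 (limma, adjusted p = 0.970). The 20 nearest measured genes around Id1 on chromosome 2, 10 on each side, had a median deviation of 0.13 in HoxA9AA replicate 1 and between −0.11 and 0.08 in the other 5 mice. The 20 neighbours of Id2 on chromosome 12 lay between −0.03 and 0.10 in all 6 mice, against −2.43 and −1.94 for Id2 itself.

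The E protein genes, the targets of Id inhibition, all had higher means in HoxA9AA/Meis1 marrow. Tcf12 measured 10.19, 9.96 and 10.03 in the HoxA9wt mice and 10.44, 10.25 and 10.46 in the HoxA9AA mice. The groups were apart by 0.06, and the spread was alike, with means of 10.06 ± 0.12 (SD, n = 3) and 10.38 ± 0.12. The difference was 0.32 ± 0.11 (SE), with a 95% interval of 0.07 to 0.58 (limma, adjusted p = 0.731). Its 20 neighbours on chromosome 9 had a median difference of 0.15, the largest among the members, and 15 of them a higher mean. Tcf4 measured 9.37, 8.94 and 9.08 against 9.39, 9.52 and 9.63. Its groups were apart by 0.02, because HoxA9wt replicate 1 lay next to HoxA9AA replicate 1, and its difference was 0.38 ± 0.14 (95% interval 0.06 to 0.71, limma, adjusted p = 0.731). HoxA9AA replicate 2, which is near the HoxA9wt mice in Id2, was above all of them in both genes. Without it the differences were 0.39 for Tcf12 (limma, adjusted p = 0.1995) and 0.38 for Tcf4 (adjusted p = 0.393). With any other array left out, the adjusted p of either gene was 0.697 to 0.998 (limma).

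Tcf3, which encodes E12 and E47, parted the HoxA9AA mice. It measured 7.68, 7.81 and 7.74 in the HoxA9wt mice, and 8.26, 7.68 and 8.13 in HoxA9AA replicates 1, 2 and 3. HoxA9AA replicates 1 and 3 were above, and HoxA9AA replicate 2 was level with the lowest HoxA9wt mouse. The means were 7.74 ± 0.07 (SD, n = 3) and 8.02 ± 0.30, a difference of 0.28 ± 0.16 (SE; 95% interval −0.10 to 0.66, limma, adjusted p = 0.782). It was 0.45 without HoxA9AA replicate 2 (limma, adjusted p = 0.141) and 0.16 without HoxA9AA replicate 1 (adjusted p = 0.774).

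Among cell types that carry much of these E proteins, B cell genes mostly had higher means, and plasmacytoid dendritic cell genes took no common direction. Plasmacytoid dendritic cells depend on Tcf4, and 4 of their 12 measured genes were higher and 8 lower (median −0.03), with Ccr9, Spib and Pacsin1 under the olfactory limit on all arrays. Their summed level was 11.48 to 12.01 in HoxA9wt/Meis1 and 11.74 to 12.12 in HoxA9AA/Meis1 marrow. B cell precursors depend on Tcf3, and 15 of 17 measured B cell genes had a higher mean (median 0.17), but 9 of the measured, among them Cd79a, Ms4a1, Ebf1 and Rag2, stayed under that limit on all arrays. The B cell list lay at 0.21, 0.15 and 0.24 in HoxA9AA replicates 1, 2 and 3, whereas the HoxA9wt mice lay at −0.03 to 0.04, with summed levels of 10.72 to 11.07 and 10.53 to 10.68. Vpreb3, a surrogate light chain-like gene of B cell precursors, measured 6.67, 6.78 and 6.74 against 7.60, 7.16 and 7.20. The part of these cells in the E protein values was not tested.

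Of the 2 DNA-binding partners, Lyl1 kept the groups apart and Tal1 did not. Lyl1 measured 9.01 in each HoxA9wt mouse and 9.74, 9.30 and 9.56 in HoxA9AA replicates 1, 2 and 3. The groups were apart by 0.29, the widest gap among the 9 genes. The means were 9.01 and 9.53 ± 0.22 (SD, n = 3), a difference of 0.52 ± 0.12 (SE), or 1.44-fold, with a 95% interval of 0.22 to 0.82 (limma, unadjusted p = 0.0048, adjusted p = 0.731). The 3 equal values are equal to the 2 decimals deposited, which holds for 13 of all genes in the HoxA9wt group, and the standard error borrows spread from other genes. By unadjusted p Lyl1 stood at place 90 of 19938. Without HoxA9AA replicate 2 its difference was 0.64 (limma, adjusted p = 0.0821). With any other array left out, the adjusted p of Lyl1 was 0.697 to 0.998 (limma). Its 20 neighbours on chromosome 8 had median deviations of 0.05, 0.04 and 0.14 in the 3 HoxA9AA mice, and 16 of them a higher mean.

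Tal1 measured 6.95, 7.35 and 7.09 in the HoxA9wt mice and 7.28, 7.03 and 7.15 in the HoxA9AA mice, with a difference of 0.02 ± 0.13 (SE; 95% interval −0.29 to 0.34, limma, adjusted p = 0.992). The groups overlapped, and the highest value was that of HoxA9wt replicate 2. This mouse also had the highest erythroid list, at 0.61 against −0.48 to −0.18 in the other 5, and the highest megakaryocyte list, at 0.36 against −0.20 to −0.07. Erythroid genes had a lower mean in HoxA9AA/Meis1 for 14 of 15 measured members (median −0.23, −0.06 without HoxA9wt replicate 2 and −0.36 without HoxA9wt replicate 1), with summed levels of 10.91 to 12.30 in the HoxA9wt and 10.82 to 11.02 in the HoxA9AA mice. Of 10 megakaryocyte genes 7 were lower, with summed levels of 10.30 to 11.39 and 10.46 to 10.57. Klf1, Epb42 and Cldn13 stayed under the olfactory limit on all arrays, as did Clec1b. The part of red cell precursors in the Tal1 values was not tested.

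**Figure D3:**
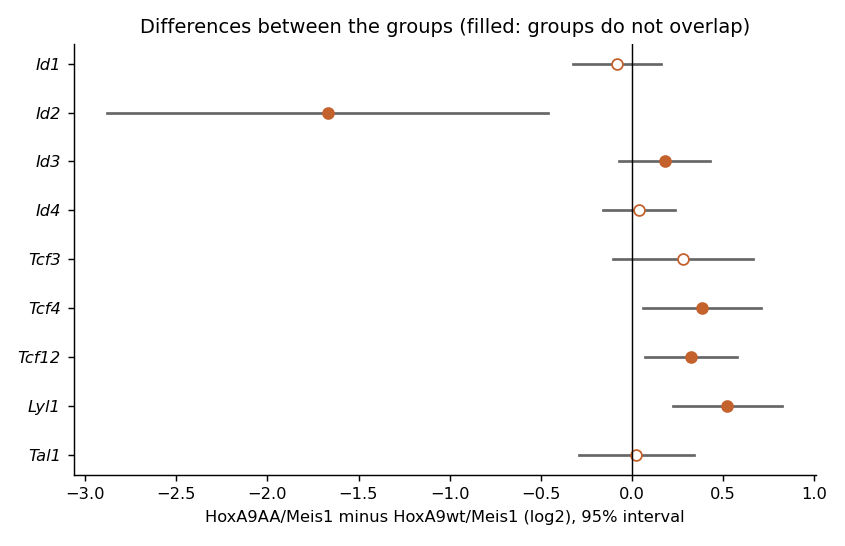
Difference between HoxA9AA/Meis1 and HoxA9wt/Meis1 (horizontal axis, log2) for each of the 9 genes (vertical axis), with the 95% interval of the moderated fit (n = 3 mice per group); filled points are genes whose groups do not overlap. Id2 lies at −1.67 with an interval of −2.88 to −0.46, and the intervals of Tcf4, Tcf12 and Lyl1 lie above 0, none of them adjusted for the number of genes.

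Within single HoxA9AA mice, the values of Id2, Lyl1 and Tcf3 took 1 order. HoxA9AA replicate 1 had Id2 at −2.43 from the HoxA9wt mean, Lyl1 at 0.73, Tcf3 at 0.52, Tcf12 at 0.38 and Tcf4 at 0.26. HoxA9AA replicate 3 had Id2 at −1.94, Lyl1 at 0.55, Tcf3 at 0.39, Tcf12 at 0.40 and Tcf4 at 0.50. HoxA9AA replicate 2 had Id2 at −0.64, Lyl1 at 0.29, Tcf3 at −0.06, Tcf12 at 0.19 and Tcf4 at 0.39. The order of these 3 mice in Id2 was thus the reverse of that in Lyl1 and Tcf3. Tcf4 and Tcf12 did not follow it, with HoxA9AA replicate 3 the highest in both and HoxA9AA replicate 1 the lowest in Tcf4. No correlation is given for 3 mice. Over all genes, 66.6%, 48.0% and 62.5% lay outside the HoxA9wt range in HoxA9AA replicates 1, 2 and 3. These shares have the same order as Lyl1 and Tcf3. Of the 9 members, 7, 6 and 8 lay outside that range. A link between Id2 and its partners was not tested.

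**Figure D4:**
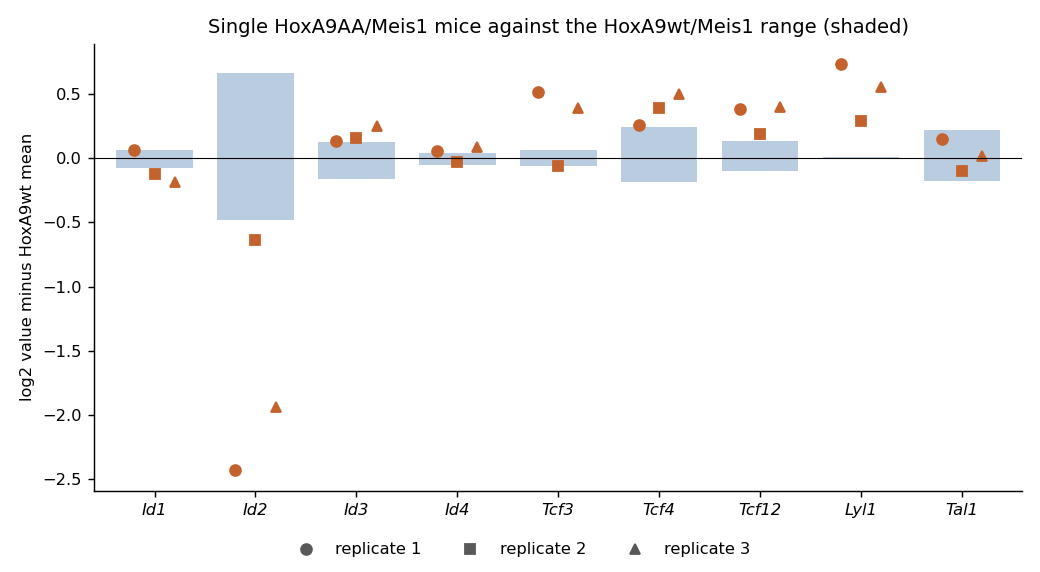
Log2 value minus the HoxA9wt mean (vertical axis) of each of the 9 genes in the 3 HoxA9AA/Meis1 mice (symbols); the shaded boxes span the 3 HoxA9wt/Meis1 mice, a line for Lyl1. Id2 is the only one of the 9 with all 3 mice below the box, at −2.43, −0.64 and −1.94, and Lyl1, Tcf12 and Tcf4 have all 3 above it, as does Id3 by 0.01 at its lowest.

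The genes nearest to Lyl1 over the 6 mice were Invs, Zfp511, Ccdc97 and Rpl22, at distances of 0.045, 0.050, 0.053 and 0.057. Rpl22, a protein of the large ribosomal subunit, measured 7.57, 7.51 and 7.42 in the HoxA9wt mice and 8.15, 7.83 and 8.07 in the HoxA9AA mice. For Lyl1, 67 genes lay within 0.1, so that its pattern is shared by many genes. The genes nearest to Tcf4 were Rmnd5a, Pacs1, Zfp90 and Ptk2b, at distances of 0.052 to 0.066, and 26 genes lay within 0.1. Ptk2b, a focal adhesion-type tyrosine kinase, measured 9.25, 8.89 and 9.05 against 9.23, 9.34 and 9.42. For Id2, with its wider range, 0 genes lay within 0.1.

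For most genes of the complexes that Tal1 and Lyl1 form, the HoxA9AA/Meis1 mean was the higher one. All 17 were measured, 13 were higher and 4 lower, with a median difference of 0.22 against 0.01 over all genes. With all 6 arrays 0 passed the test. For 6 genes the unadjusted p was under 0.05, all towards higher values (4.15% of all genes in that direction). The same 6 kept the groups apart (6.6% of all genes in that direction). Higher values of Erg and Runx1 were known from earlier work on these arrays, so the list is no independent evidence of its direction. Runx1 and Erg, transcription factors of blood stem cells, are described by each mouse. Erg measured 8.42, 8.23 and 8.31 in the HoxA9wt mice and 9.60, 8.74 and 9.43 in the HoxA9AA mice, and Runx1 measured 8.92, 9.09 and 9.19 against 10.34, 9.45 and 9.61. In both genes HoxA9AA replicate 2 was the HoxA9AA mouse nearest to the HoxA9wt group. The difference of Erg was 0.94 ± 0.22 (SE, limma, adjusted p = 0.731). Without that mouse it was 1.20 and passed (limma, adjusted p = 0.0446), the only measured gene of the 16 lists that did so. Leaving out the HoxA9AA mouse nearest to the HoxA9wt group favours a pass, so this one is a description. The difference of Runx1 was 0.73, and without that mouse 0.91 (limma, adjusted p = 0.171).

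Among the cofactors, Cbfa2t3 (Eto2), a corepressor that binds E proteins, measured 7.24, 7.09 and 7.29 in the HoxA9wt mice and 8.04, 7.47 and 7.77 in the HoxA9AA mice. Its difference was 0.55 ± 0.16 (SE; limma, adjusted p = 0.731), and 0.70 without HoxA9AA replicate 2 (adjusted p = 0.104). Ldb1, the adaptor that joins the complex, measured 9.57, 9.44 and 9.52 against 10.48, 9.58 and 10.14, with groups that nearly touched. Its difference was 0.56, and 0.80 without HoxA9AA replicate 2 (limma, adjusted p = 0.0911). Ssbp2 and Ssbp3, which keep Ldb1 from being degraded, differed by 0.53 and 0.48. Lmo2, the bridge between Tal1 or Lyl1 and Ldb1, overlapped at 10.14, 9.86 and 9.80 against 9.77, 9.96 and 10.36 (difference 0.10). Gata2 measured 7.11 to 7.26 in the HoxA9wt mice and 7.69, 7.06 and 7.55 in the HoxA9AA mice, and Gata1, Ldb2 and Runx1t1 stayed under the olfactory limit on all arrays.

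Progenitor genes had higher means in part as well. Of 18 measured stem and progenitor genes 12 were higher and 6 lower (median 0.10, and 0.18 without HoxA9AA replicate 1 or without HoxA9AA replicate 2). With genes under the median of all probe sets left out it was 0.40. The list lay at 0.13, −0.02 and 0.57 in HoxA9AA replicates 1, 2 and 3, whereas the HoxA9wt mice lay at −0.18 to 0.20. Its summed level was 12.11 to 13.11 in the HoxA9AA group and 11.77 to 12.40 in the HoxA9wt group, and Procr, Mecom, Hoxb5, Slamf1, Tek and Prom1 stayed under the olfactory limit on all arrays. Kit, the stem cell factor receptor, measured 8.63, 7.54 and 8.38 against 9.96, 8.43 and 10.49. Flt3, on the same list but with a lower mean, measured 10.21, 9.87 and 10.69 against 6.92, 10.13 and 10.85. The stem and progenitor list also holds Hoxa9 and Meis1, which had been introduced into the donor cells. It therefore does not measure progenitor content alone. Of 14 mast cell and basophil genes 9 were higher, 7 stayed under the limit on all arrays, and the list lay at 0.18, −0.23 and 0.69 in the HoxA9AA mice and −0.23 to 0.41 in the HoxA9wt mice (summed levels 10.57 to 12.40 and 10.34 to 11.82). Of 19 neutrophil granule genes 16 were higher, at 1.04, 0.86 and −0.36 in the HoxA9AA mice and −1.10 to 0.77 in the HoxA9wt mice (summed levels 14.37 to 15.67 and 14.47 to 15.55). Their median difference was 0.78, 0.17 without HoxA9wt replicate 3 and 0.36 without HoxA9AA replicate 1. Mmp8, a neutrophil collagenase, went the other way, at 11.70 to 12.49 in the HoxA9wt mice against 8.07, 11.44 and 6.07 in HoxA9AA replicates 1, 2 and 3, the last of these under the olfactory limit. Its groups did not overlap (limma, adjusted p = 0.731). The part of these cells in the values of Lyl1 and of its complex was not tested.

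**Figure D5:**
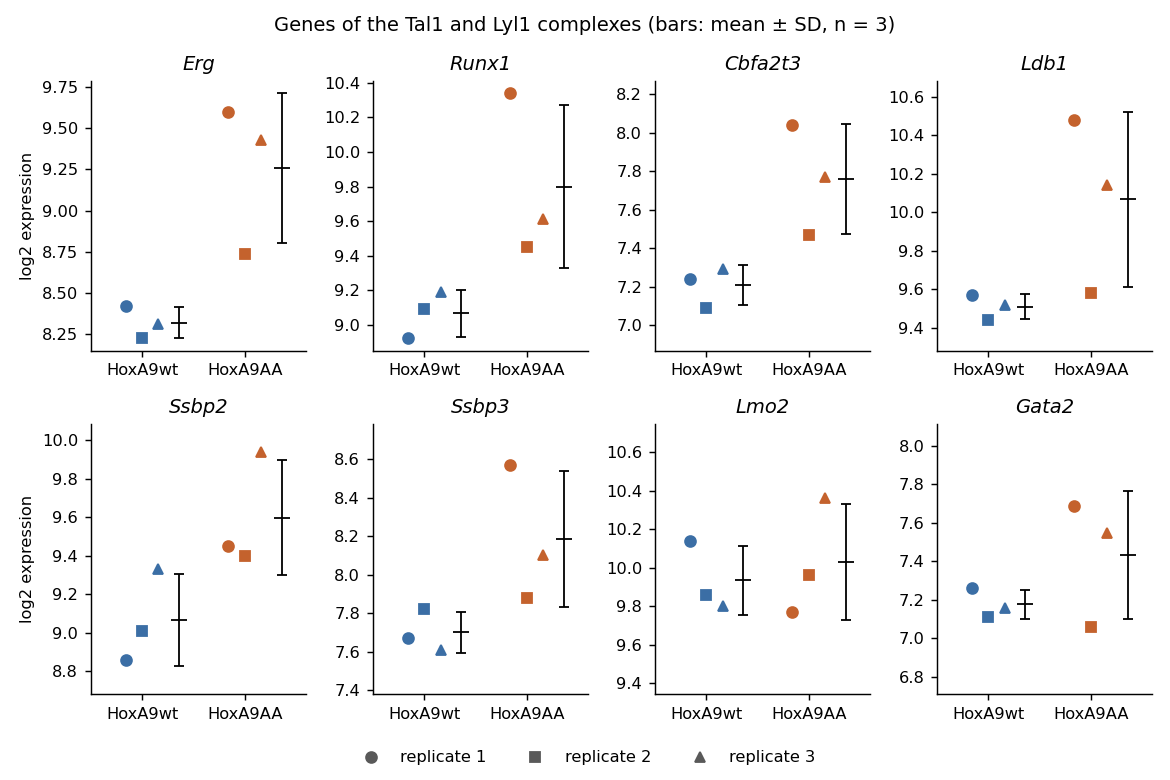
Expression values (log2, vertical axis) of 8 genes of the Tal1 and Lyl1 complexes on each of the 6 arrays, by group on the horizontal axis; each symbol is 1 mouse, and bars show mean ± SD by group (n = 3). The vertical scales differ between genes. Erg, Runx1, Cbfa2t3, Ldb1, Ssbp2 and Ssbp3 do not overlap between the groups, Ldb1 by 9.57 against 9.58, and Lmo2 and Gata2 do.

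Upstream of the Id genes, the BMP and TGF-beta pathway showed no common direction. Of 36 measured genes (37 listed) 21 were higher and 15 lower, with a median of 0.03, and 0 passed. An unadjusted p under 0.05 (limma) was found for 3 higher genes and 2 lower ones, where 4.15% of all genes were higher and 2.59% lower by that limit. The type I activin receptor gene Acvr1b measured 7.48 to 7.73 against 7.92 to 8.11, and the ligand gene Tgfb1 8.66 to 8.86 against 9.01 or more, each higher in every HoxA9AA mouse. Smurf1, a ubiquitin ligase for Smads, was lower in every HoxA9AA mouse, at 7.60 to 7.76 against 7.33 to 7.52. The type II BMP receptor gene Bmpr2 measured 9.08, 9.99 and 9.53 against 8.49, 9.20 and 7.48, with overlapping groups.

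Reported regulators of Id2 and Id1 in myeloid cells went both ways, 14 of 23 higher and 9 lower (median 0.02), and 0 passed. Foxo3 measured 8.80, 8.67 and 8.69 against 9.15, 8.95 and 9.11, and the ETS repressor gene Etv6 10.16, 9.79 and 10.08 against 10.99, 10.22 and 10.74. Klf4, a factor of monocyte differentiation, and Zeb2, a repressor of Id2 in dendritic cells, were lowest in the same 2 mice as Id2. Klf4 measured 7.43, 7.73 and 7.63 against 6.97, 7.47 and 7.05, and Zeb2 10.19, 9.98 and 10.19 against 9.38, 10.20 and 9.11. Their differences were −0.43 and −0.56 (limma, adjusted p = 0.731 and 0.743), with overlapping groups.

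Lymphoid genes that E proteins activate ranged from under the olfactory limit to well above it. Of 24 measured genes (28 listed) 17 were higher and 7 lower, with a median of 0.07, and 0 passed. Ebf1, Rag1, Rag2, Dntt, Cd79a and Blnk stayed under the olfactory limit on all arrays. Vpreb3 alone had an unadjusted p under 0.05 and separate groups (difference 0.59, limma, adjusted p = 0.731). Notch1 and Gfi1 differed by 0.40 and 0.58 with overlapping groups, Gfi1 through HoxA9AA replicate 1 at 8.94 against 7.44 to 7.93 in the other 5 mice.

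Enzymes that turn over or modify Id and E proteins went both ways as well, 12 of 20 higher and 8 lower (median 0.08), and 0 passed. Usp1, which removes ubiquitin from Id proteins, measured 9.45, 9.49 and 9.64 in the HoxA9wt mice and 9.26, 9.57 and 9.55 in the HoxA9AA mice. Its cofactor gene Wdr48 (difference 0.18), Fzr1, the Cdh1 subunit of the anaphase-promoting complex (0.27), and the arginine methyltransferase gene Carm1 (0.38) were higher in each HoxA9AA mouse. Setd7 differed by 0.53 with overlapping groups. Other HLH factors showed little: of 25 genes 16 were higher and 9 lower (median 0.03), 11 stayed under the olfactory limit on all arrays, and 0 had an unadjusted p under 0.05. Tcf15, Tcf23, Bhlhe40 and Twist1 differed by 0.27, −0.20, −0.31 and 0.11.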

How the data were processed

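The deposited values, 1 array per mouse, are on a log2 scale, which was taken from their range and from RMA. Per the submitters' processing notes the authors used oligo and RMA (background correction, quantile normalization, summary per probe set), with versions and build not given in the sources used here. Of 35556 probe sets 21789 had 1 gene symbol in the platform annotation and were used, the brightest per gene (19938 genes). The test was that of limma 3.58.1, run in R 4.3.3 (eBayes, two-sided, Benjamini-Hochberg over all genes, threshold 0.05), checked on simulated data. The fit's 95% intervals are not adjusted. Precision is limited by the number of mice. The p-values weigh each group difference against the spread between mice, an estimate that limma partly borrows from other genes. Figures used matplotlib 3.10.9.

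The members, the 6 pathway lists and the 10 cell type lists were chosen with earlier results of these data known. Named were the members, up to 4 genes per list with the smallest p, and, for the 3 members of widest range, the 4 genes nearest in root mean square distance. Ldb1, Ssbp3, Lmo2, Gata2, Usp1, Bmpr1a, Lyz2 and genes listed as near background were named after their values were seen. Promoter sequences are from RefSeq, GRCm38.p6. The main fit did not pair the mice by replicate number. Deviations from the group means correlated at −0.21, −0.10 and −0.01 for same-numbered mice and at −0.16 to 0.24 for different-numbered mice. With 3 mice per group these values constrain each other and cannot decide whether the numbers mark pairs. Alternatives were the replicate block, leaving out each array, filters at 6.82 and 5.30, other probe set rules, quantile normalization, median centring, trend and robust eBayes, and array weights.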

Additional observations from a re-analysis of the deposited data

How the results depend on the processing

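Of the 9 genes, 8 kept their direction under every alternative that gave a value, and none passed in any. Tal1 turned to −0.0342 with array weights and ran from −0.0667 to 0.1333 with 1 array left out, and the cause was not tested. With 1 array left out the ranges were −2.19 to −1.29 for Id2, 0.42 to 0.64 for Lyl1, 0.27 to 0.39 for Tcf12, 0.29 to 0.50 for Tcf4 and 0.16 to 0.45 for Tcf3. The count of genes called over the whole array was 0 with all 6 arrays under each setting, and 0 to 48 with 1 array left out (48 without HoxA9AA replicate 2, 1 without HoxA9wt replicate 3), none of them a member and Erg among the 48. With the replicate block 0 genes were called and Id2 kept −1.67 (limma, adjusted p = 0.891). Whether the replicate numbers mark pairs is not known, and the block changed no call. Id3 and Id4, dimmer than 6.82, gave no value under that filter. Scaling moved the median of all genes by under 0.1, and under quantile normalization 12610 of 19938 genes had a higher mean against 10523. With array weights the median was −0.31 for the monocyte and 0.05 for the stem and progenitor list. The turnover list had a median of −0.02 without HoxA9AA replicate 3, the regulators of Id2 and Id1 0.07 without HoxA9wt replicate 3, other HLH factors 0.10 under quantile normalization, and mast cells 0.62 with the filter at 6.82. Signal over background limits Id1, Id3 and Id4.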

Other observations

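Bmpr1a, a type I receptor through which BMPs induce Id genes, was noticed in the BMP list after its values were seen. It measured 4.72, 5.22 and 4.84 in the HoxA9wt mice and 4.75 in HoxA9AA replicate 2, all under the olfactory limit, and 8.72 and 7.57 in HoxA9AA replicates 1 and 3. The groups overlapped (limma, adjusted p = 0.731), and no fold is given because 4 of the 6 values are not above that limit. The 2 mice with Bmpr1a above the limit were those with the lowest Id2, and Id1 measured 7.07 and 6.82 there.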
